A study of Drosophila melanogaster with 6 samples.

Results

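The genes described here code for the machinery that carries proteins and RNA between the nucleus and the cytoplasm in the ovary of Drosophila melanogaster. They are 42 genes named by FlyBase symbol, of which 16 code for transport factors and 26 for proteins of the nuclear pore, and all 42 were found among the 17559 genes counted in each library. The libraries were made from poly(A) RNA of dissected ovaries of flies kept at 25 °C. The 3 mutant libraries came from females with the RanBP9 allele D1 over the chromosome BSC469, and the 3 control libraries from females with the w1118 chromosome over the same BSC469 chromosome. RanBP9 is the older name of Ipo9, the gene of Importin-9, a receptor known to bring actin into the nucleus. Both groups therefore carry BSC469, by its name a deletion chromosome of the Bloomington stock collection, and differ in what lies over it. The labels do not state what BSC469 removes, what kind of allele D1 is, how old the females were or how many ovaries went into a library. The series asks what a lower level of actin in the nucleus does to transcription. The comparison below asks whether the mRNA levels of the other transport genes differ in ovaries that carry a mutant allele of 1 import receptor.

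Importins bind cargo in the cytoplasm and release it in the nucleus, where the small GTPase Ran is loaded with GTP. Exportins bind cargo together with Ran and GTP in the nucleus and release it outside, where RanGAP makes Ran hydrolyse its GTP. Both pass through the nuclear pore, a ring of nested protein complexes whose centre is filled by nucleoporins rich in phenylalanine-glycine repeats. In the ovary, nurse cells and follicle cells build large polyploid nuclei, and the oocyte is stocked with pore proteins and importins that the early embryo uses.

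Library totals ran from 21583524 to 26483578 counted reads, and the 42 genes were well covered, with 779 to 33945 counts each in any library. In a principal component analysis over all genes tested, mutant replicate 2 stood apart from the other mutant libraries. It lay at −7.92 on the first component, which held 58.1% of the variance, against −25.0 and −27.3 for mutant replicates 1 and 3 and 16.7 to 22.2 for the controls, and at −26.1 on the second component, against 0.690 to 10.8 for the other 5 libraries. The labels do not say whether the replicates came from separate crosses or dissections, so the p-values below measure the spread between these libraries. The tissue label was checked against marker genes. The 10 germline markers, vas, osk and bam among them, were present in every library, with sums of 4742 to 4973 CPM (counts scaled to the effective library size) in mutant and 4829 to 4953 in control libraries. Of these, aub was called higher and vas, bam and gus lower in mutant ovaries (edgeR, adjusted p under 0.05), with a list median log2 fold change of −0.08. Over all genes tested, 8.31% were called higher and 6.2% lower. The 10 follicle cell markers summed to 8380 to 10027 CPM in mutant and 10767 to 12620 in control libraries, so the groups did not overlap. Most of that sum came from Yp1, Vm26Aa and Cp36. The eggshell gene Cp36, at a mean of 3430 CPM in mutant and 5133 in control libraries, was the 1 called marker of the list and was lower (−0.58). Vm26Aa had means of 2360 and 3008 CPM (−0.35), while tj (0.25), br (0.35) and Cad99C (0.58) had values above 0 with overlapping groups, and the list median was −0.0029. The lists of sheath muscle markers and of markers of other tissues had lower sums than the germline and follicle cell lists. The 10 sheath muscle markers summed to 117 to 222 CPM in mutant and 103 to 182 in control libraries, with none called and a median of 0.19. All 10 had log2 fold changes above 0, from 0.04 to 0.49. The 10 hemocyte markers summed to 316 to 374 and 355 to 374 CPM, almost all of it from crq and srp, with the blood cell gene Hml at 0.51 CPM or less, and none of the 4 tested was called (median 0.34). Of 7 fat body markers 2 could be tested, with none called (median −0.39), and the list summed to 308 to 325 and 285 to 327 CPM, nearly all from FASN1 and apolpp. The 8 testis markers summed to at most 0.046 CPM in mutant and 0.138 in control libraries, with 5 of the 8 at 0 counts in every library, and none could be tested. The 6 neuron markers reached at most 5.08 CPM, with elav alone tested and not called (0.45). The 6 gut markers summed to 73.8 CPM in mutant replicate 2, 13.9 in mutant replicate 3 and at most 0.11 in the other 4 libraries, and none could be tested. The part of these differences in cell content in the results below was not tested, and in bulk tissue fewer cells of a type cannot be told apart from less RNA per cell.

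Ipo9 itself (FBgn0037894, 11412522 to 11416142 on 3R in the BDGP6 or dm6 build) was read at 98.3, 91.1 and 92.0 CPM in mutant replicates 1, 2 and 3 and at 118, 155 and 116 CPM in control replicates 1, 2 and 3. The mutant values were all lower than the controls, and control replicate 2 stood above the other controls. The log2 fold change, mutant over control, was −0.47 (95% interval −0.76 to −0.17). Its p, from the quasi-likelihood test of edgeR and adjusted by Benjamini-Hochberg over the 8110 genes tested, was 0.0544. Ipo9 was past the threshold of 0.05 without control replicate 2 (−0.32, adjusted p = 0.00551), without both replicates numbered 2 (−0.30, 0.0172) and in DESeq2 (7.0e-05). The transcript was present in the mutant, and the state of the protein was not measured.

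None of the 42 transport and pore genes passed the threshold. There were 0 higher and 0 lower, where 14.5% of all genes tested were called, 8.31% higher and 6.2% lower. All 42 had been tested. By the unadjusted p, 4 of the 42 were under 0.05, or 9.52%, against 29.1% of all genes tested. DESeq2 called 3 of them, at a background of 15.4%, and limma-voom 0, at a background of 14.5%. Leaving out 1 library gave 3 calls without mutant replicate 3 and 2 without control replicate 2, and 0 without each of the other 4. The share of all genes called was 17.9% and 9.62% in these fits. It was 9.45% and 9% without mutant replicates 1 and 2, and 6.88% and 9.42% without control replicates 1 and 3. The fit without a filter on low counts called 2 of the 42, at a background of 10.3%. No other fit called any, at backgrounds of 14.5% with RLE factors, 13.8% with no composition factor, 15.2% with a filter of 1 CPM, 8.98% with a replicate block and 6.3% without both replicates numbered 2.

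The differences were small in size as well as short of the threshold. Log2 fold changes ran from −0.12 for Pen to 0.16 for Karybeta3, with 18 above 0 and 24 below. The median was −0.02, against −0.0033 over all genes tested, and the median size regardless of sign was 0.06, against 0.10. The median SE was 0.049 for the 42 and 0.061 over all genes tested. The part of expression level in the smaller size was not tested. For 40 of the 42 genes the 95% interval of the difference lay wholly within −0.25 to 0.25, a change of 18.9% upward at most, and the widest bounds over all 42 were −0.23 and 0.27. For 4 genes (msk, Karybeta3, Pen and Tnpo) the interval did not include 0. The groups did not overlap in 10 of the 42, or 23.8%, where 34.9% of all genes tested did not overlap. The mutant libraries were above in 5 (18.4% of all genes tested) and below in 5 (16.5%). The 16 transport factors had a median of 0.03, with 10 above 0 and 6 below, and the 26 pore genes a median of −0.03, with 8 above 0 and 18 below. The median of the transport factors stayed between 0.01 and 0.06 in the 14 alternative fits. That of the pore genes lay between −0.05 and 0.02 and was above 0 without both replicates numbered 2. By library, the transport factors had median log2 deviations from the control mean of 0.03, −0.02 and 0.05 in mutant replicates 1, 2 and 3. These were −0.01, 0.03 and −0.01 in control replicates 1, 2 and 3, so the groups overlapped.

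**Figure D1:**
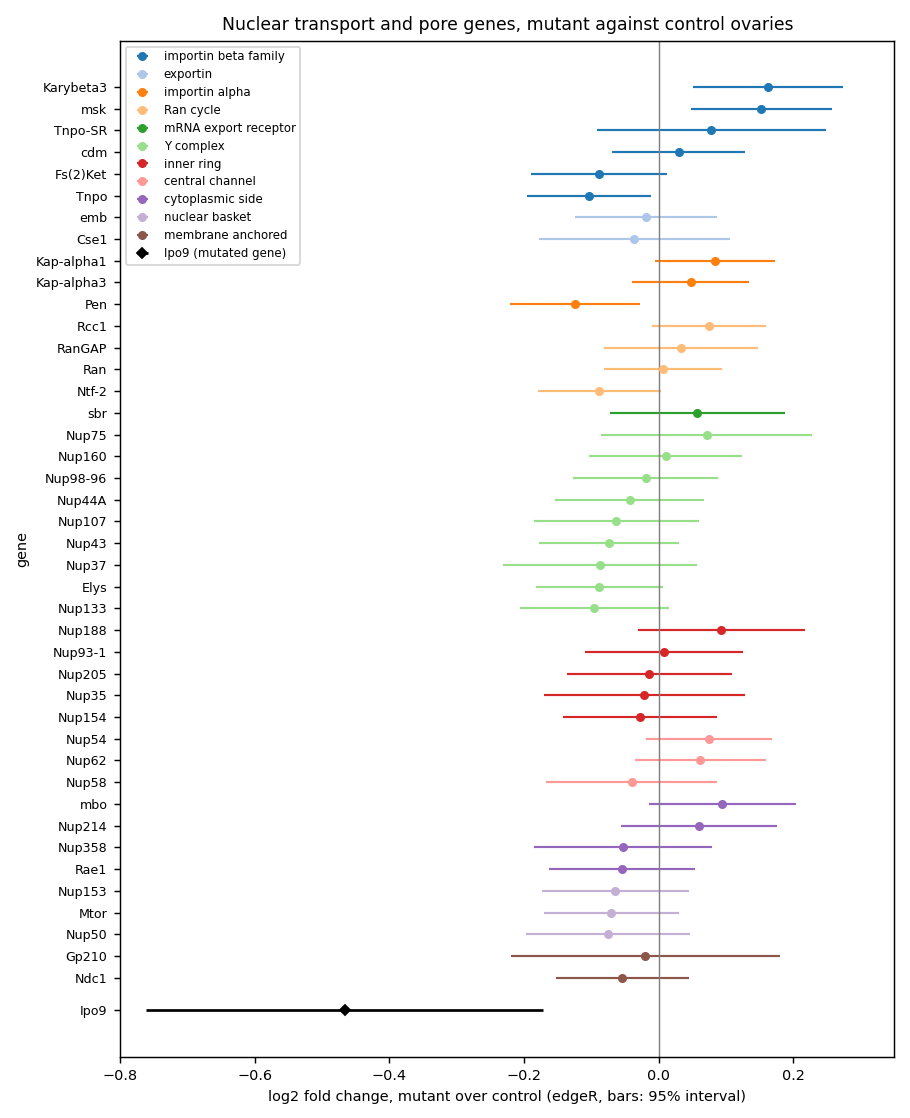
Log2 fold change of each gene, mutant over control ovaries (edgeR, 3 libraries each), on the horizontal axis, with genes on the vertical axis coloured by role. Bars are 95% intervals. The 42 transport and pore genes lie between −0.12 and 0.16, and the mutated gene Ipo9 lies at −0.47.

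Among the 6 importins of the beta family, which bind cargo and Ran directly, 2 had all mutant libraries above the controls and 1 all below. Of all genes tested, 18.4% lay above and 16.5% below in this way. The gene msk (FBgn0026252, 8116179 to 8121579 on 3L) codes for moleskin, the fly Importin-7, known in Drosophila for importing activated MAP kinase and Mad. Its level was 1054, 1064 and 1031 CPM in mutant replicates 1, 2 and 3 and 931, 1001 and 901 CPM in control replicates 1, 2 and 3. All mutant values lay above all control values, with control replicate 2 the nearest. The log2 fold change was 0.15 (95% interval 0.05 to 0.26), with an adjusted p of 0.0554 in edgeR and 0.0145 in DESeq2.

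Karybeta3 (FBgn0087013, 4649176 to 4654624 on 3R), the fly Importin-5, a receptor of ribosomal proteins and histones in other species, was read at 1007, 1007 and 940 CPM in mutant and at 878, 927 and 835 CPM in control replicates 1, 2 and 3. The groups were again apart, by a narrow margin between mutant replicate 3 and control replicate 2. Its log2 fold change of 0.16 (95% interval 0.05 to 0.27) was the highest of the 42, with an adjusted p of 0.0564 in edgeR and 0.0159 in DESeq2. Both msk and Karybeta3 were past the threshold in 4 of the 14 alternative fits. These were DESeq2, the fit without a filter on low counts (adjusted p = 0.0446 and 0.0392), the fit without mutant replicate 3 (0.0462 and 0.0227) and that without control replicate 2 (0.0285 and 0.0451). Over the 14 fits the adjusted p of msk ran from 0.0145 to 0.192 and that of Karybeta3 from 0.0159 to 0.167.

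Tnpo (FBgn0024921), which codes for transportin, the import receptor of many RNA-binding proteins, was at 363, 368 and 360 CPM in mutant and at 380, 409 and 383 CPM in control replicates 1, 2 and 3. Mutant libraries were tightly grouped below the controls. The log2 fold change was −0.10 (95% interval −0.20 to −0.01, adjusted p = 0.127, edgeR), and no alternative fit placed it past the threshold. Fs(2)Ket (FBgn0262743), the gene of Importin-beta itself, had 751 ± 29.9 CPM in mutant and 799 ± 27.1 CPM in the controls (mean ± SD, 3 libraries each), with overlapping groups. Tnpo-SR, a receptor of SR splicing factors, had 39.2 ± 1.13 and 37.2 ± 4.08 CPM and a log2 fold change of 0.08 (95% interval −0.09 to 0.25). The Importin-13 homologue cdm had 126 ± 4.31 and 123 ± 4.47 CPM.

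**Figure D2:**
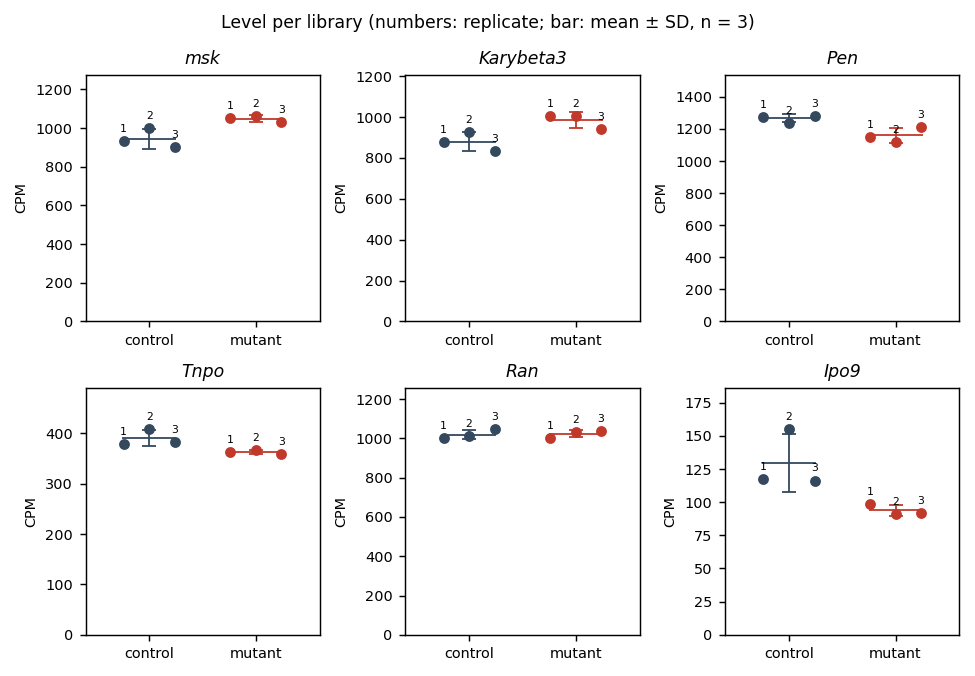
Level in CPM (vertical axis, from 0) of 5 transport genes and of Ipo9 in each library, with control libraries in dark blue and mutant libraries in red. Small numbers give the replicate, and bars the mean ± SD over 3 libraries. For msk and Karybeta3 the mutant points lie above the controls, for Pen, Tnpo and Ipo9 below, and for Ran the groups overlap.

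Of the 3 importin alpha genes, which code for the adaptors that recognise classical nuclear localisation signals, Pen was the most abundant. Pen (10056900 to 10060095 on 2L) codes for pendulin, a fly importin alpha that is needed for fertility in both sexes. Its level was 1152, 1119 and 1212 CPM in mutant and 1277, 1238 and 1283 CPM in control replicates 1, 2 and 3. Each mutant library was below each control library, with mutant replicate 3 the closest to the controls. The log2 fold change of −0.12 (95% interval −0.22 to −0.03) was the lowest of the 42, with an adjusted p of 0.0835 in edgeR. It was past the threshold in DESeq2 (adjusted p = 0.0150) and without mutant replicate 3 (0.0299), and reached 0.253 in other alternatives.

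The other importin alpha genes had values on the opposite side of 0. Kap-alpha1 was at 209, 212 and 203 CPM in mutant and at 202, 197 and 190 CPM in control replicates 1, 2 and 3, a log2 fold change of 0.08 (95% interval −0.005 to 0.17, adjusted p = 0.197, edgeR). Its groups did not overlap, though the lowest mutant and the highest control library nearly met. Kap-alpha3 had 633 ± 18.4 CPM in mutant and 612 ± 5.44 CPM in the controls (mean ± SD, 3 libraries each), with overlapping groups. Per length of exon, Pen made up 62.2% ± 0.659 of the summed importin alpha level in control and 59.2% ± 1.11 in mutant libraries, Kap-alpha3 27.1% ± 0.498 and 29.0% ± 0.754, and Kap-alpha1 10.7% ± 0.338 and 11.8% ± 0.545 (SD, n = 3). These shares were computed after the values were seen and are given without a test.

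The exportin genes and the Ran cycle were close to the control level. The gene emb codes for Crm1, the exportin of proteins with leucine-rich signals. It had 400 ± 15.6 CPM in mutant and 405 ± 18.6 in control ovaries, a log2 fold change of −0.02 (95% interval −0.13 to 0.09, SD over n = 3). Cse1, whose protein returns importin alpha to the cytoplasm, had 410 ± 35.1 and 421 ± 18.6 CPM and a log2 fold change of −0.04 (95% interval −0.18 to 0.11). Its mutant replicate 2 stood lowest, at 370 CPM, against 424 and 436 in mutant replicates 1 and 3.

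Ran (FBgn0020255, 11144852 to 11148716 on X) was at 1003, 1034 and 1037 CPM in mutant and at 1000, 1012 and 1048 CPM in control replicates 1, 2 and 3. The 2 groups covered the same range. The log2 fold change was 0.01 (95% interval −0.08 to 0.09, adjusted p = 0.933, edgeR). Rcc1, the nucleotide exchange factor that loads Ran with GTP on chromatin, had 503 ± 10.9 CPM in mutant and 477 ± 6.87 in control ovaries. Its groups did not overlap, and its log2 fold change was 0.07 (95% interval −0.01 to 0.16, adjusted p = 0.228, edgeR). Ntf-2, which returns Ran to the nucleus, lay the other way with 135 ± 3.46 and 143 ± 4.09 CPM, groups apart and a log2 fold change of −0.09 (95% interval −0.18 to 0.0032, adjusted p = 0.187, edgeR). RanGAP had 190 ± 12.8 and 185 ± 4.29 CPM. The mRNA export receptor gene sbr, the fly homologue of NXF1, had 79.1 ± 6.09 and 76.1 ± 2.66 CPM and a log2 fold change of 0.06 (95% interval −0.07 to 0.19).

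The pore itself is built from modules, and none held a called gene. The Y complex forms the outer rings of the pore scaffold, and its 9 genes had a median log2 fold change of −0.06, with 2 above 0 and 7 below. Nup133 was at 108, 95.9 and 101 CPM in mutant and at 106, 110 and 110 CPM in control replicates 1, 2 and 3, a log2 fold change of −0.10 (95% interval −0.21 to 0.01, adjusted p = 0.236, edgeR). Mutant replicate 1 lay within the control range. Elys, whose protein seeds pore assembly on chromatin, was at 142, 139 and 137 CPM in mutant and at 152, 151 and 142 CPM in control replicates 1, 2 and 3 (log2 fold change −0.09, 95% interval −0.18 to 0.01, adjusted p = 0.199, edgeR). The groups met at mutant replicate 1 and control replicate 3. Nup98-96, 1 gene that makes both the repeat protein Nup98 and the scaffold protein Nup96, had 385 ± 16.4 CPM in mutant and 391 ± 18.1 in control ovaries, and its counts do not separate the products. The other 6 Y complex genes, Nup107, Nup160, Nup75, Nup43, Nup37 and Nup44A, had control means of 40.2 to 141 CPM and log2 fold changes of −0.09 for Nup37 to 0.07 for Nup75. In Nup43 alone of the 9 were all mutant libraries below the controls, at 48.2 ± 1.17 against 50.8 ± 1.08 CPM.

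The inner ring, which links the outer rings to the membrane and the central channel, had a median of −0.01 over 5 genes, with a range of −0.03 for Nup154 to 0.09 for Nup188. Nup188 had 148 ± 6.74 CPM in mutant and 139 ± 9.40 in control ovaries, and the groups overlapped. The 95% interval of its log2 fold change was −0.03 to 0.22 (adjusted p = 0.308, edgeR). Nup154, known in Drosophila for its role in gametogenesis, had 264 ± 14.1 and 270 ± 13.1 CPM (log2 fold change −0.03, 95% interval −0.14 to 0.09). The remaining scaffold genes Nup35, Nup93-1 and Nup205 had control means of 64.8 to 244 CPM and log2 fold changes of −0.02, 0.0076 and −0.01. The 3 genes of the central channel, whose repeats form its barrier, had a median of 0.06. Among them Nup54 had 129 ± 4.94 CPM in mutant and 122 ± 1.75 in control ovaries, with all mutant values above the controls (log2 fold change 0.07, 95% interval −0.02 to 0.17, adjusted p = 0.276, edgeR). Its partner Nup62 had 98.5 ± 3.89 and 94.3 ± 1.94 CPM (0.06, 95% interval −0.04 to 0.16), and Nup58 had 89.4 ± 6.79 and 91.9 ± 3.18 CPM.

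On the cytoplasmic side, where export complexes are taken apart, the median of the 4 genes was 0.0034. The gene mbo, the fly Nup88, had 76.1 ± 3.52 CPM in mutant and 71.3 ± 2.40 in control ovaries (log2 fold change 0.09, 95% interval −0.01 to 0.20, adjusted p = 0.237, edgeR). It lies 1.26 Mb from Ipo9 on 3R, and with Kap-alpha3 at 1.83 Mb it is 1 of the 2 genes of the 42 within 2 Mb of it. Nup214, which binds mbo in the pore, had a log2 fold change of 0.06 (95% interval −0.06 to 0.18). Nup358, the largest pore protein and a Ran-binding SUMO ligase, had 795 ± 48.8 and 825 ± 54.6 CPM, and Rae1 had 72.0 ± 3.89 and 74.7 ± 1.63 CPM. The 3 genes of the nuclear basket all had values below 0, at a median of −0.07. Mtor, the fly Tpr and the basket's main filament, was at 479, 482 and 488 CPM in mutant and at 495, 537 and 488 CPM in control replicates 1, 2 and 3. The mutant libraries ended just under the lowest control, and the log2 fold change was −0.07 (95% interval −0.17 to 0.03, adjusted p = 0.340, edgeR). Nup50 had 169 ± 13.5 and 179 ± 1.73 CPM (−0.08, 95% interval −0.20 to 0.05), and Nup153, which anchors the basket, had 333 ± 10.3 and 349 ± 20.3 CPM. The membrane anchors Gp210 and Ndc1 were at −0.02 (95% interval −0.22 to 0.18) and −0.05 (95% interval −0.15 to 0.04), and Gp210 shares 2.60% of its exons with a transposon annotation, INE-1.

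In level, the 42 genes spanned a range of 51.8-fold. Levels of different genes are compared per kilobase of annotated exon, as CPM per kb in control ovaries. Of the 42, 39 lay above 23.6 CPM per kb, the median of the 7845 protein-coding genes tested. Ran was the highest at 537 ± 13.2 CPM per kb, followed by Pen at 491 ± 9.57 and msk at 237 ± 12.9 (SD, n = 3). Lowest were Tnpo-SR at 10.4 ± 1.14, sbr at 21.5 ± 0.751 and Elys at 22.3 ± 0.856, and sbr and Elys differ by less than their SDs combined. Transport factors had a median of 101 CPM per kb and ran from 10.4 to 537, while pore genes had a median of 44.5 and ran from 22.3 to 96.5.

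Within modules, the spread of the levels per kb varied. The highest and lowest differed 1.29-fold in the central channel, 2.46-fold in the inner ring, 2.56-fold in the Y complex and 3.47-fold on the cytoplasmic side in control ovaries, and 1.38-fold, 2.32-fold, 2.68-fold and 3.14-fold in mutant ovaries. The nuclear basket genes differed 2.17-fold and the membrane anchors 1.07-fold in control ovaries. Among the transport factors, the exportins differed 1.44-fold, the importin alpha genes 5.82-fold, the Ran cycle genes 14.0-fold and the importins of the beta family 22.9-fold. Modules differ in their number of genes, and the pore genes as a whole ran from 22.3 to 96.5 CPM per kb, so no module is called narrower than the rest. Nup358 (96.5 ± 6.38 CPM per kb) and Nup50 (93.6 ± 0.909) were the highest pore genes, and their SDs overlap. Ipo9 was at 39.2 ± 6.67 CPM per kb, near cdm at 33.4 ± 1.21, above Tnpo-SR and below the other importins of the beta family among the 42. The labels do not state whether BSC469 removes Ipo9, so its copy number in these control ovaries is not known. The level per kb uses all annotated exons, so a gene with unused exons is placed too low.

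**Figure D3:**
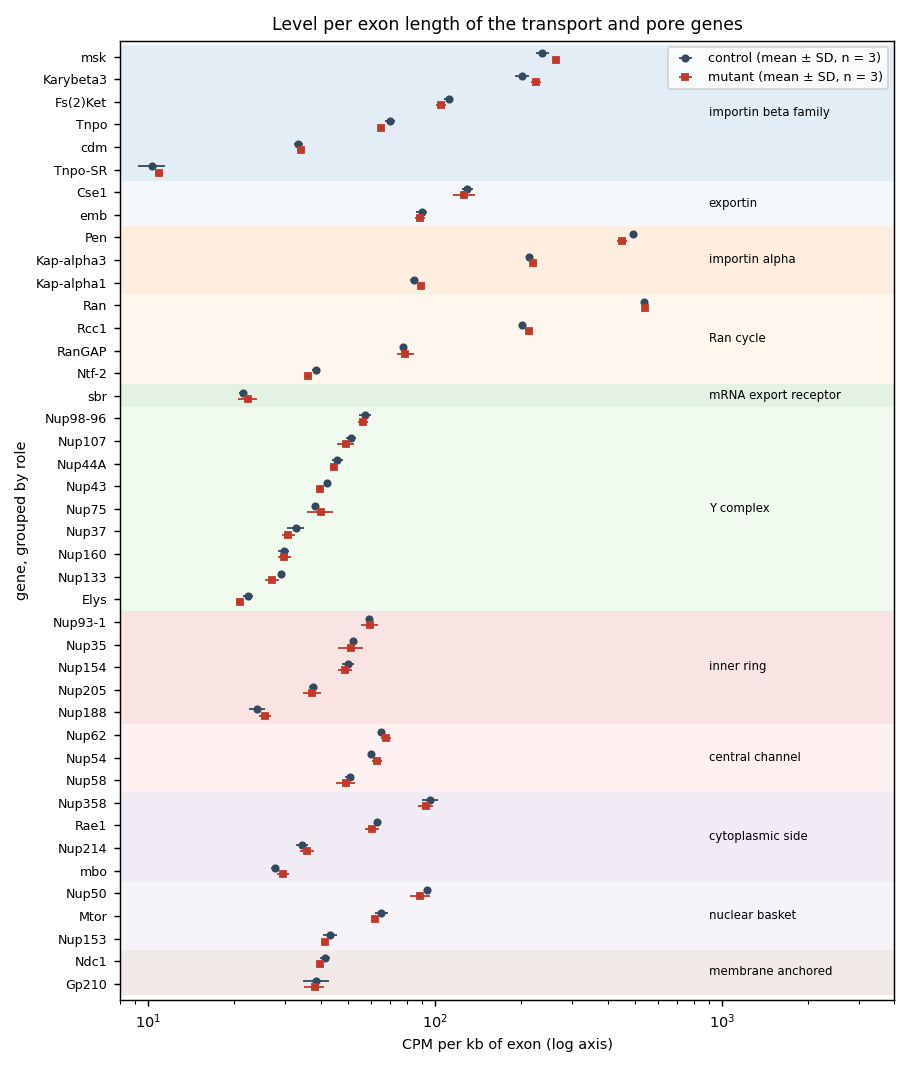
Level of each gene per kilobase of exon (horizontal log axis, CPM per kb) in control (circles) and mutant (squares) ovaries, as mean ± SD over 3 libraries each, with genes grouped by role. Pore genes fall between 22.3 and 96.5 in control ovaries, while transport factors run from 10.4 for Tnpo-SR to 537 for Ran.

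Replicates were close for these genes. The coefficient of variation had a median of 4.16% among mutant and 3.56% among control libraries, against 5.05% and 4.76% over all genes tested. The part of expression level in that difference was not tested. Cse1, Nup75 and Nup35 in mutant and Tnpo-SR and Gp210 in control ovaries were among the most variable of the 42. Many of the 42 nevertheless had the same library as their highest or lowest. The matching shares over all genes tested were not computed, here or for control replicate 2 below. The pattern is therefore not shown to be particular to the 42. Mutant replicate 2 was the lowest mutant library for 23 of the 42, and the pore genes lay at a median of −0.09 there, relative to the control mean on the log2 scale, against −0.01 and 0.03 in mutant replicates 1 and 3. Mutant replicate 3 was the highest mutant library for 25 of the 42. Without mutant replicate 2, 0 of the 42 were called and their median log2 fold change was 0.013. Mutant replicate 2 is also the library with the highest sum of gut markers, and the part of that difference was not tested.

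Control replicate 2 was the highest control for 24 of the 42, and for 11 of the 12 with over 5 kb of exon. Across the 42 genes, the deviation of that library from the control mean had a Pearson r of 0.73 with log2 exon length, against −0.58 and −0.40 in control replicates 1 and 3, and 0.27, 0.04 and −0.42 in mutant replicates 1, 2 and 3. Over the 7845 protein-coding genes the values were 0.27 for control replicate 2 and −0.13 to 0.05 for the other libraries except control replicate 3 (−0.22). Genes of 1 library share its depth and preparation, and each control is part of the control mean, so these r are a description. The fold change itself had an r of −0.04 with exon length and of 0.04 with level per kb over the 42 genes.

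**Figure D4:**
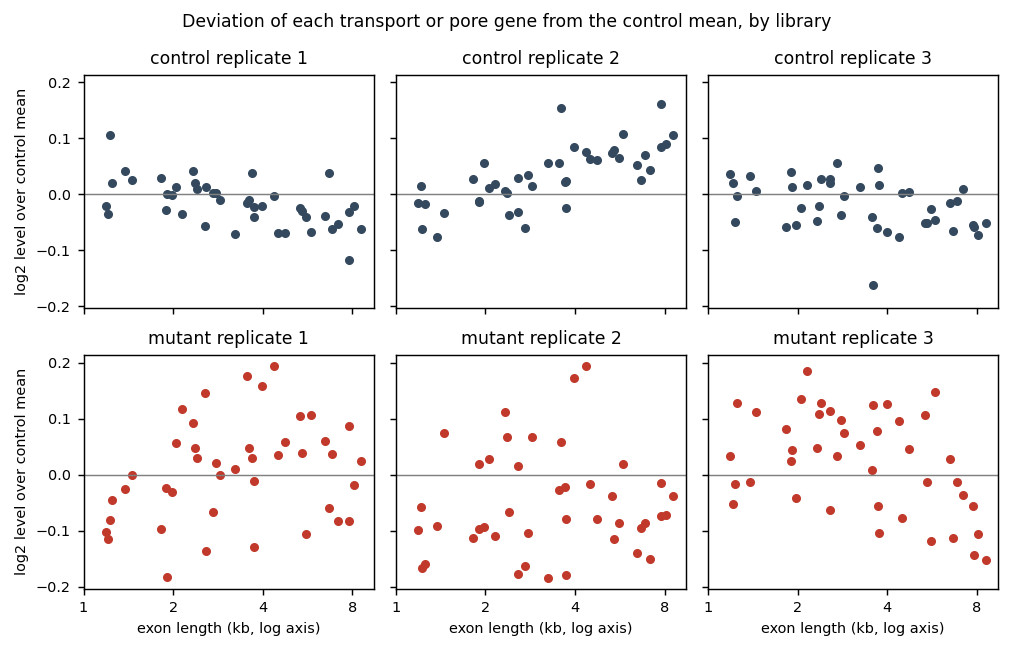
Log2 level of each of the 42 genes over its control mean (vertical axis) against exon length in kb (horizontal log axis), with 1 panel per library. The r between the 2 is 0.73 in control replicate 2 and −0.58 in control replicate 1.

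Other genes of the pathway, from lists of further importins and pore genes, mRNA export, the nuclear lamina and envelope, and the SUMO system, had 2 lower and 0 higher of 39 tested (5.13%, against 14.5% of all genes tested). Further importin and pore genes had 0 called of 12 tested, Ipo9 included, with a median log2 fold change of −0.03. The closest to the threshold after Ipo9 was Dbp80, an RNA helicase gene of the cytoplasmic side of the pore. It was at 119, 108 and 114 CPM in mutant and at 88.3, 104 and 102 CPM in control replicates 1, 2 and 3, with the groups apart (log2 fold change 0.22, SE 0.07, adjusted p = 0.0549, edgeR), and past the threshold in 3 of 14 alternative fits. Aladin (−0.12, SE 0.05, adjusted p = 0.118, edgeR), a pore gene, was next. The male germline importin gene alphaKap4 had 0 counts in every library.

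LamC (FBgn0010397, 14570810 to 14575771 on 2R), the gene of the A-type lamin, was the clearest difference at the nuclear envelope. LamC lies inside the gene ttv of the opposite strand. It was at 67.3, 60.9 and 61.3 CPM in mutant and at 85.9, 81.0 and 97.0 CPM in control replicates 1, 2 and 3. All mutant libraries lay well below all controls. LamC fell by 0.48 on the log2 scale (SE 0.07, adjusted p = 0.00281, edgeR), and the call held in all 14 alternative fits, at log2 fold changes of −0.53 to −0.40. Lam, the gene of the B-type lamin that all nuclei use, had a log2 fold change of −0.01 (SE 0.04). Of the 9 lamina and envelope genes tested, LamC was the 1 called, and the list median was −0.02. Ote, a LEM domain gene needed for germline stem cells, had 91.3 ± 6.99 CPM in mutant and 107 ± 8.02 in control ovaries, with non-overlapping groups that nearly met (−0.23, SE 0.07, adjusted p = 0.0560, edgeR; past the threshold in 4 of 14 alternative fits). LBR, the lamin B receptor gene, had a log2 fold change of 0.12 (SE 0.07).

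In the mRNA export list, 1 gene of 14 was lower and 0 higher, with a median of −0.02. It was Nxf2 (16576859 to 16580306 on 3L), a relative of sbr that acts in piRNA-guided silencing. Nxf2 was at 79.9, 74.8 and 81.5 CPM in mutant and at 87.9, 90.4 and 91.3 CPM in control replicates 1, 2 and 3, and the groups were apart. It fell by 0.19 (SE 0.05, adjusted p = 0.0207, edgeR). The call ended without mutant replicate 2 (adjusted p = 0.0766), without control replicates 1, 2 or 3 (0.0561, 0.0558 and 0.0680) and without both replicates numbered 2 (0.141). An annotated copy of the transposon TART-A shares 630 bases, or 21.6%, of the exons of Nxf2 on the same strand, so reads there are uncertain. The export gene tex had 22.3 ± 1.66 CPM in mutant and 24.9 ± 0.702 in control ovaries (−0.16, SE 0.07, adjusted p = 0.163, edgeR). None of 7 genes of the SUMO system, which modifies pore proteins and RanGAP, was called, with a median of 0.0053. Sumo itself, listed as smt3, was at 0.10 (SE 0.06, adjusted p = 0.323, edgeR), with 6.86% of its exons shared with a transposon annotation.

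**Figure D5:**
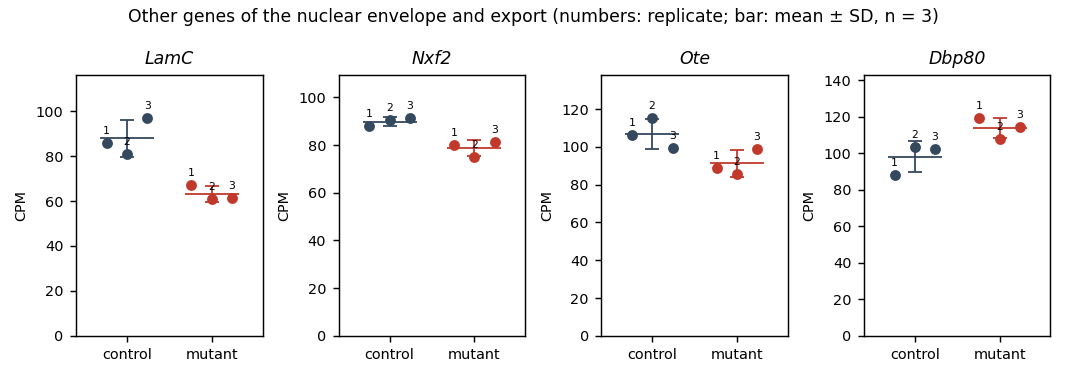
Level in CPM (vertical axis, from 0) of LamC, Nxf2, Ote and Dbp80 in each library, with control in dark blue and mutant in red, replicate numbers beside the points and bars for the mean ± SD (n = 3). LamC and Nxf2 are the called genes, and their mutant points lie below all controls.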

How the data were processed

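Poly(A) RNA of 6 ovary libraries was measured, 3 per genotype. The authors deposited 1 table per library of raw read counts per gene, with TopHat2, HTSeq, DESeq2, dm6 and BDGP6 named, without roles or versions, per the submitters' processing notes. The annotation release and the strand setting were not stated. Per the labels' protocols the libraries are directional. Of 17559 genes, 17253 were matched to the BDGP6 annotation by ID and 216 by position (reciprocal overlap of at least 90%), Pen among the latter. Mtor was matched to Mgtor. Of the other list entries, 5 (apl, arts, xmas, Zc3h3 and Tor) were not used. Deposited starts count from 0, and 1 was added.

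None of the 42 genes overlaps exons of another counted gene on the same strand, and 14 do so on the opposite strand, over at most 20.6% of their exons. Genes lying inside an exon of a gene with at least 1000 counts had 10 or more counts in 0 of 32 cases on the same strand and 18 of 48 on the opposite strand. Both limits apply to counts summed over the 6 libraries.

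edgeR 4.0.16 (R 4.3.3) was run on 8110 genes kept by filterByExpr (minimum count 10; 9449 were set aside), with TMM factors of 0.986 to 1.01, a robust quasi-likelihood fit of mutant against control without covariates, and Benjamini-Hochberg adjustment over all genes tested, called under 0.05. CPM use the TMM factors, and no molecular identifiers are mentioned, so counts may include PCR copies. Intervals are 95% t intervals on the fitted log2 fold change. The alternatives were DESeq2 1.42.0, limma-voom (limma 3.58.1), other scalings and filters, a replicate block and libraries left out, 14 fits in all. The code was tested on simulated counts.

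The genes, their modules, the other lists (including the germline, follicle cell, muscle, hemocyte, fat body, gut, testis and neuron markers) and the rules were chosen with earlier results of these data known. Full statistics were given for called genes, the 2 smallest p per module, the 3 highest and 3 lowest log2 fold changes and levels per kb, and Ipo9, with other genes by level. Same-numbered libraries did not deviate together.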

Additional observations from a re-analysis of the deposited data

How the results depend on the processing

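The count of all genes called was 1177, 566 to 1475 with 1 library left out, 516 without both replicates numbered 2 and 728 with a replicate block. Same-numbered libraries had correlations of −0.23, −0.26 and −0.12 in their deviations from the group means, so the block rests on a shared number alone, and under it 0 of the 42 genes passed. Calls among the 42 were 0 in the reported fit, 3 with DESeq2, 2 without a filter on low counts, 0 to 3 with 1 library left out and 0 elsewhere. Calls among the other pathway genes were 2, and 3 with no composition factor (Dbp80 added), 5 with DESeq2, 4 without the filter and 1 to 5 with 1 library left out. The median log2 fold change of the 42 was −0.02, −0.028 to 0.014 with 1 library left out and 0.042 without both replicates numbered 2. The causes of these shifts were not tested. Of the 25 genes given with full statistics, sign changes occurred in 6. In the reported fit these 6 ran from −0.04 for Cse1 to 0.06 for sbr. Without both replicates numbered 2, emb was at 0.013, Cse1 at 0.061, Ran at −0.0054, Nup154 at 0.054 and Gp210 at 0.065. With 1 library left out, emb ran from −0.053 to 0.015, Cse1 from −0.081 to 0.032, Ran from −0.0081 to 0.026, sbr from −0.0085 to 0.097, Nup154 from −0.062 to 0.014 and Gp210 from −0.077 to 0.069. Among the other genes of the 42, RanGAP, cdm, Nup160, Nup205, Nup35, Nup358, Nup58, Nup93-1 and Nup98-96 also changed sign over the 14 fits. The counts of genes above and below 0 therefore depend on the fit. The median of all genes stayed within 0.01 of 0 in every fit. The lowest count of the 42 genes in a library was 779, and the part of counting error in their spread was not tested.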

Other observations

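Of the 42 genes, Nup37 and Nup358 are the closest neighbours, 247 bases apart on the plus strand of 3R. Nup37, a Y complex gene, had 37.9 ± 1.97 CPM in mutant and 40.2 ± 2.65 in control ovaries, and per kb of exon 30.9 ± 1.61 and 32.8 ± 2.16, while Nup358 had 93.0 ± 5.71 and 96.5 ± 6.38 CPM per kb (SD, n = 3). The next closest pair, Nup154 and Nup160, lies 113 kb apart on 2L. The 42 genes are spread over the arms, with 9 on 2L, 10 on 2R, 4 on 3L, 11 on 3R and 8 on X.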
